A study of Mus musculus with 6 samples.

Results

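Genes of the bone marrow niche and of homing to it, 8 in number, were described in leukaemic mouse marrow, profiled cell by cell in 6 RNA libraries. They are Col1a1, Col1a2 and Sparc (matrix), Cxcl12 and Kitl (secreted niche factors), Cxcr4 (a receptor), and Vcam1 and Itga4 (adhesion). These 8 of the 30406 genes listed in all 6 matrices were taken by symbol and had been chosen from their measured CPM per library and the share of their UMIs held by the 50 barcodes richest in collagen, so every value given is a description and none carries a test. The oncogenes were MLL-AF9 (MA9) or Hoxa9 with Meis1 (HM), brought, per the labels, into cells that they call mouse embryonic stem cells. The MA9 libraries were labelled Shp-1 Δ/Δ given AraC + Dox, Shp-1 f/f given AraC + Dox, Shp-1 Δ/Δ given PBS and Shp-1 f/f given PBS, and the HM libraries Shp-1 f/f given AraC + Dox and Shp-1 f/f given PBS. Shp-1 is a tyrosine phosphatase encoded by Ptpn6, f/f its floxed and Δ/Δ its deleted state, and AraC + Dox is cytarabine with doxorubicin, a chemotherapy pair, set against the vehicle PBS. The age of the mice, how many were pooled and what deleted Shp-1 are not given in the sources used here.

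Each group is 1 library, so no difference has a replicate check, and the intervals given cover counting error only. Ptpn6 stood at 43.6 CPM (counts per 1e6 UMIs) in the MA9 Δ/Δ AraC + Dox-labelled library and 57.7 CPM in the f/f AraC + Dox-labelled one, against 172 CPM in the Δ/Δ PBS-labelled one and 186 CPM in the f/f PBS-labelled one. It followed the treatment label more than the genotype label, so the MA9 libraries are named by their labels throughout. A 3′ read outside the deleted part of the gene would not show the deletion, and which part was deleted was not examined. File names and labels also differ for some MA9 libraries. Whether the labels match the libraries was not tested. A barcode was kept if it had 500 genes or more and no more than 10% mitochondrial UMIs, doublets included, which left 8614 to 9750 cells in the MA9 libraries and 4676 and 2755 in HM AraC + Dox and HM PBS. Median UMIs per kept cell ran from 4021 in HM PBS to 10112.5 in the Δ/Δ AraC + Dox-labelled library. The filter kept 22.1% of HM PBS barcodes, where 74.7% were above the mitochondrial limit, and at least 87.2% of barcodes elsewhere. Pairs of MA9 libraries shared 18 to 27 kept barcodes and the HM pair 6, and none of the 80 barcodes rich in collagen or Cxcl12 described below was shared. MA9 barcodes are 16 and HM barcodes 17 bases long, so none could be shared between MA9 and HM.

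The marrow niche is made by mesenchymal stromal cells, osteoblasts and vessels. Osteoblasts lay down type I collagen, a trimer of the chains encoded by Col1a1 and Col1a2, together with the collagen-binding glycoprotein SPARC. Stromal cells that express the leptin receptor secrete CXCL12, the ligand of CXCR4, and stem cell factor (Kitl), the ligand of KIT, and hold blood stem cells in place. VCAM1, found on stroma, endothelium and marrow macrophages, is bound by the integrin VLA-4, whose alpha chain is Itga4.

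Windows around the gene starts are shown for the matrix genes Col1a2 and Sparc and the secreted factors Cxcl12 and Kitl, the genes of these roles with a RefSeq entry, since the results below turn on which barcodes carried them. Of the 8 genes, 6 matched an entry. Each window is RefSeq's (GRCm38.p6), from 250 bases before the start to 50 after it, on the gene's strand, with capitals marking, on either strand, the letters TATAAA (the classical TATA box), the letters CCAAT (the CCAAT box, bound by NF-Y) and the letters GGGCGG (the GC box, bound by SP1). These motifs were found in 13.6%, 37.4% and 35.7% of all 32851 windows of this length.
Col1a2 (chr6:4505368-4505667, plus strand): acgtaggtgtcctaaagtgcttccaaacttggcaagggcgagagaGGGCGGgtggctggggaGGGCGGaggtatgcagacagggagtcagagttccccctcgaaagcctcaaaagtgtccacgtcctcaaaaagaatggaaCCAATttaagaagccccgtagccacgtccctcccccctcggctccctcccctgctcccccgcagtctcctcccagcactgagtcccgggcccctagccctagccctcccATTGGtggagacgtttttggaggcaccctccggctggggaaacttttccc
Sparc (chr11:55420031-55420330, minus strand): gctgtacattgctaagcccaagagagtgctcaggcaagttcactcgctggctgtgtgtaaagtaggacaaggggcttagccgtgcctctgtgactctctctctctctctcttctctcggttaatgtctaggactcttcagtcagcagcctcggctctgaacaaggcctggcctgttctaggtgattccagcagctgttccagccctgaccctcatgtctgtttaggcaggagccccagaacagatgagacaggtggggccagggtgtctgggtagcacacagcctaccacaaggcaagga
Cxcl12 (chr6:117168285-117168584, plus strand): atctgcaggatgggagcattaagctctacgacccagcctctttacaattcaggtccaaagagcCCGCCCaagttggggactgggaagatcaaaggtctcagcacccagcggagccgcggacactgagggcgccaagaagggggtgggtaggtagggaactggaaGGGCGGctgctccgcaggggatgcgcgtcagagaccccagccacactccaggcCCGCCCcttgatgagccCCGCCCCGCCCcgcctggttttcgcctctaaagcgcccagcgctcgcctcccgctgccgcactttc
Kitl (chr10:100015571-100015870, plus strand): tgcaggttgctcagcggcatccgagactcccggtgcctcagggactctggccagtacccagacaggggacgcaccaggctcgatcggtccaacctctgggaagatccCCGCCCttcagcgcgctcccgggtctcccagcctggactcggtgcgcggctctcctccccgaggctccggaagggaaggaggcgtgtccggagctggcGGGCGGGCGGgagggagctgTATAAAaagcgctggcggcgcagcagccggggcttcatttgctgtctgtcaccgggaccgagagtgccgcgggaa
Col1a2 held 2 CCAAT and 2 GGGCGG matches, and Sparc held no match to any of the 3 motifs. Cxcl12 held 5 GGGCGG matches, a pair of them overlapping, and neither of the other motifs. Kitl held 3 GGGCGG matches, a pair of them overlapping, and 1 TATAAA match 25 bases before the start. A match is a stretch of letters and not a measured site.

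Col1a1 (ENSMUSG00000001506; GRCm38 chromosome 11, 94936224 to 94953042, plus strand) was high in both libraries labelled Δ/Δ. It stood at 11.3 CPM (exact Poisson 95% interval 10.7 to 12) in the Δ/Δ AraC + Dox-labelled library and 0.366 CPM (0.247 to 0.523) in the f/f AraC + Dox-labelled one. The PBS levels were 31.1 CPM (30.0 to 32.3) in the Δ/Δ-labelled library and 0.908 CPM (0.691 to 1.17) in the f/f-labelled one. Col1a2 (ENSMUSG00000029661; chromosome 6, 4504814 to 4541544, plus strand), the partner chain, had the same order: 14.3 CPM in the Δ/Δ AraC + Dox-labelled library, 0.488 CPM in the f/f AraC + Dox-labelled one, 32.7 CPM in the Δ/Δ PBS-labelled one and 0.816 CPM in the f/f PBS-labelled one. Sparc (ENSMUSG00000018593; chromosome 11, 55394500 to 55423183, minus strand) stood at 8.13 CPM, 1.18 CPM, 24.3 CPM and 1.26 CPM in the same 4 libraries. The intervals of Sparc in both libraries labelled f/f overlapped (0.960 to 1.44 CPM with AraC + Dox, 1.0 to 1.57 CPM with PBS), whereas those of the libraries labelled Δ/Δ lay above them.

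**Figure D1:**
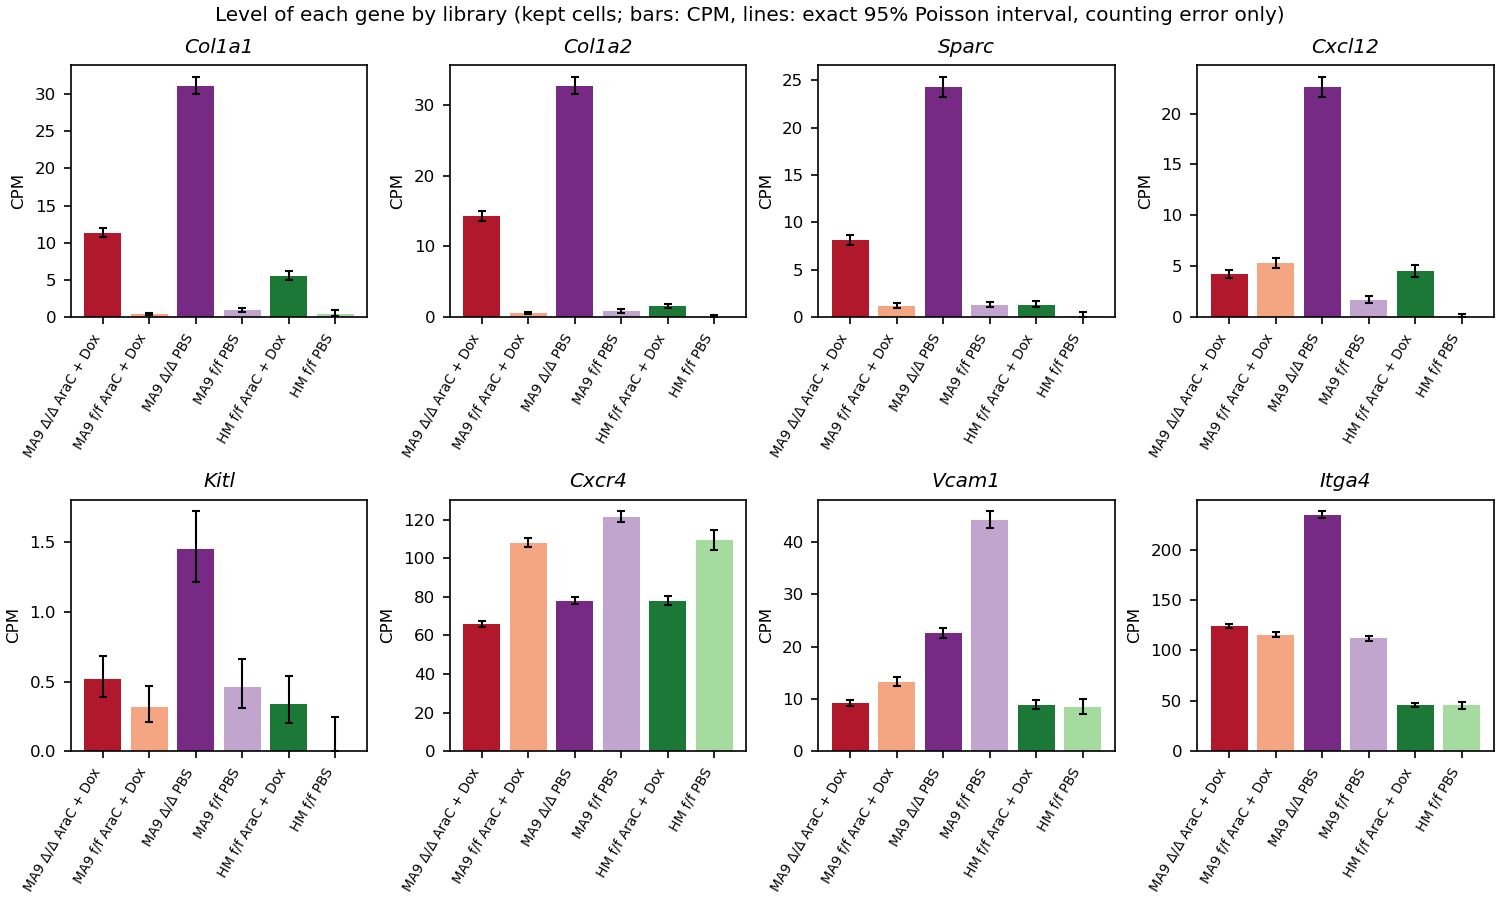
Level of each of the 8 genes in CPM over kept cells (vertical axis, one scale per gene) by library, with exact 95% Poisson intervals. Col1a1, Col1a2, Sparc and Cxcl12 are highest in the MA9 Δ/Δ PBS-labelled library, whereas Cxcr4 is at 65.9 to 122 CPM in all 6 libraries.

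Nearly all collagen of each Δ/Δ-labelled library was in 1 cell barcode. With AraC + Dox a single barcode of 11082 UMIs held 2546 of the 2655 Col1a1 and Col1a2 UMIs (95.9%), and the next barcode held 14. With PBS a single barcode of 33388 UMIs held 5426 of 5762 (94.2%), and the next held 33. Both barcodes also carried Sparc, with 728 UMIs in the AraC + Dox library and 1522 UMIs in the PBS library, and neither had a UMI of Cxcl12, Kitl, Cxcr4 or Vcam1. They carried osteoblast genes. The AraC + Dox barcode had 5 UMIs of Bglap (osteocalcin), 19 of Bglap2 and 20 of Ibsp (bone sialoprotein), while 44 of the 52 Bglap UMIs of that library lay in another barcode. The PBS barcode had 573 Bglap, 341 Bglap2 and 24 Ibsp UMIs. Summed over the osteoblast marker list they held 131 UMIs (AraC + Dox) and 1041 UMIs (PBS), beside 62 and 102 UMIs of the mesenchymal stromal list. Neither was called a doublet. The automatic doublet threshold had called 0% of cells in both Δ/Δ-labelled libraries, so the mean threshold of both MA9 f/f-labelled libraries was used there. The PBS barcode also held 296 UMIs of the granulocyte-monocyte progenitor list, and the AraC + Dox one 8. Whether either holds more than 1 cell was not tested.

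The libraries labelled f/f had no barcode so rich in collagen. The richest barcode labelled f/f AraC + Dox held 14 of 70 collagen UMIs, and the f/f PBS-labelled one held 59 of 112. Both were unlike the barcodes above in that they carried Cxcl12, with 243 UMIs (AraC + Dox) and 55 UMIs (PBS), beside 34 and 42 Sparc UMIs. The f/f PBS-labelled one was like them in carrying osteoblast genes, with 18 Bglap, 8 Bglap2 and 11 Ibsp UMIs. It held 56 UMIs of the osteoblast list, beside 169 of the mesenchymal stromal list. For the f/f AraC + Dox-labelled one these sums were 15 and 366 UMIs. The 50 barcodes with most collagen UMIs held 99.1% of Col1a1 in the Δ/Δ AraC + Dox-labelled library, 98.7% in the Δ/Δ PBS-labelled one and 100% in both labelled f/f. These shares follow from the ranking itself. The ranking also runs out of collagen: only 27 barcodes labelled f/f AraC + Dox and 42 labelled f/f PBS had a collagen UMI at all, and rank 50 stood at 1 UMI in both libraries labelled Δ/Δ.

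**Figure D2:**
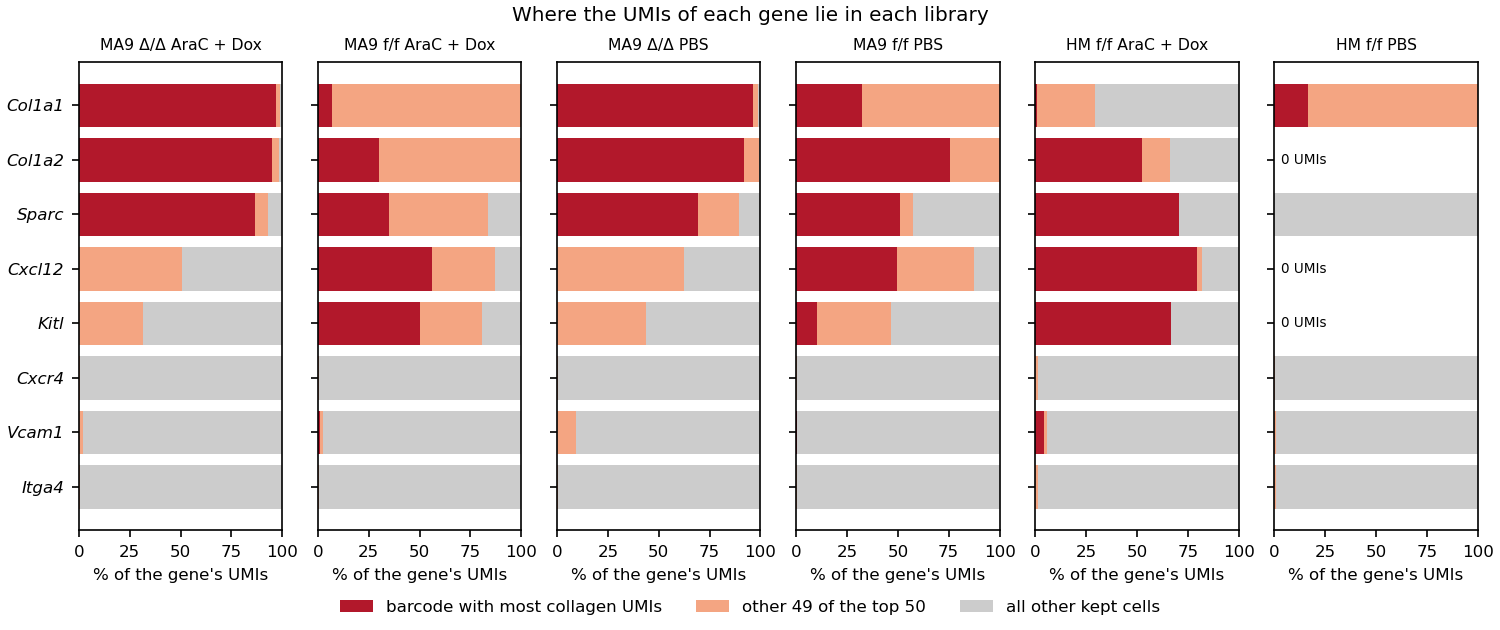
Share of each gene's UMIs (horizontal axis, percent) in the barcode with most collagen UMIs, in the other 49 of the top 50 and in all other kept cells, by library. The first barcode holds over 90% of Col1a1 and Col1a2 in both libraries labelled Δ/Δ, while Cxcr4 and Itga4 lie almost wholly in the other cells.

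Between the libraries labelled Δ/Δ PBS and f/f PBS, 6 of the 8 genes were at least 2-fold higher in the Δ/Δ-labelled library and none was at least 2-fold lower, a contrast in which 8.57% of 11620 genes at 1 CPM or more were called higher and 4.72% lower. The genes were chosen with this contrast known, so nothing is read from these shares. The log2 ratio of Col1a1 was 5.10 (4.73 to 5.50) over all kept cells and 0.82 (0.27 to 1.39) without the first barcode of each library. That of Col1a2 was 5.33 (4.93 to 5.75) with and 3.72 (2.92 to 4.65) without it, and that of Sparc 4.27 (3.95 to 4.60) with and 3.59 (3.13 to 4.09) without it. Col1a1 was thus no longer 2-fold higher with 1 barcode left out of each library, whereas Col1a2 and Sparc were. With all barcodes of 5 or more collagen or Cxcl12 UMIs left out, Col1a1 was at 0.511 CPM in the Δ/Δ PBS-labelled library and 0.570 CPM in the f/f PBS-labelled one. Col1a2 was then at 0.522 CPM (47 UMIs) in the Δ/Δ PBS-labelled library and 0.0308 CPM (2 UMIs) in the f/f PBS-labelled one. Sparc was at 1.26 CPM (113 UMIs, at most 10 in 1 barcode) and 0.539 CPM (35 UMIs, 21 of them in 1 barcode). Both genes were higher in the Δ/Δ-labelled library. Whether free RNA of the collagen-rich barcodes reached other cells in the Δ/Δ-labelled libraries was not tested.

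With AraC + Dox, the Δ/Δ-labelled library was set against the f/f-labelled one, and 3 genes (Col1a1, Col1a2 and Sparc) of the 7 at 1 CPM or more were at least 2-fold higher and none lower, where 10% of 11486 genes were called higher and 5.84% lower. The log2 ratio of Col1a1 was 4.95 with the first barcode of each library and 0.10 (-0.64 to 0.86) without it. That of Col1a2 was 4.87 with and 1.0 (0.35 to 1.69) without it, and that of Sparc 2.78 with and 0.52 (0.06 to 0.98) without it. Without these barcodes 0 of 5 genes at 1 CPM or more were called higher. Col1a1 and Sparc were then under 2-fold, whereas Col1a2 was still at 2-fold but no longer at 1 CPM, with 0.686 CPM in the Δ/Δ-labelled library and 0.342 CPM in the f/f-labelled one. With all collagen-rich and Cxcl12-rich barcodes left out, 41 Col1a2 UMIs remained in the Δ/Δ-labelled library and 1 in the f/f-labelled one, and 74 Sparc UMIs (28 of them in 1 barcode) and 5.

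**Figure D3:**
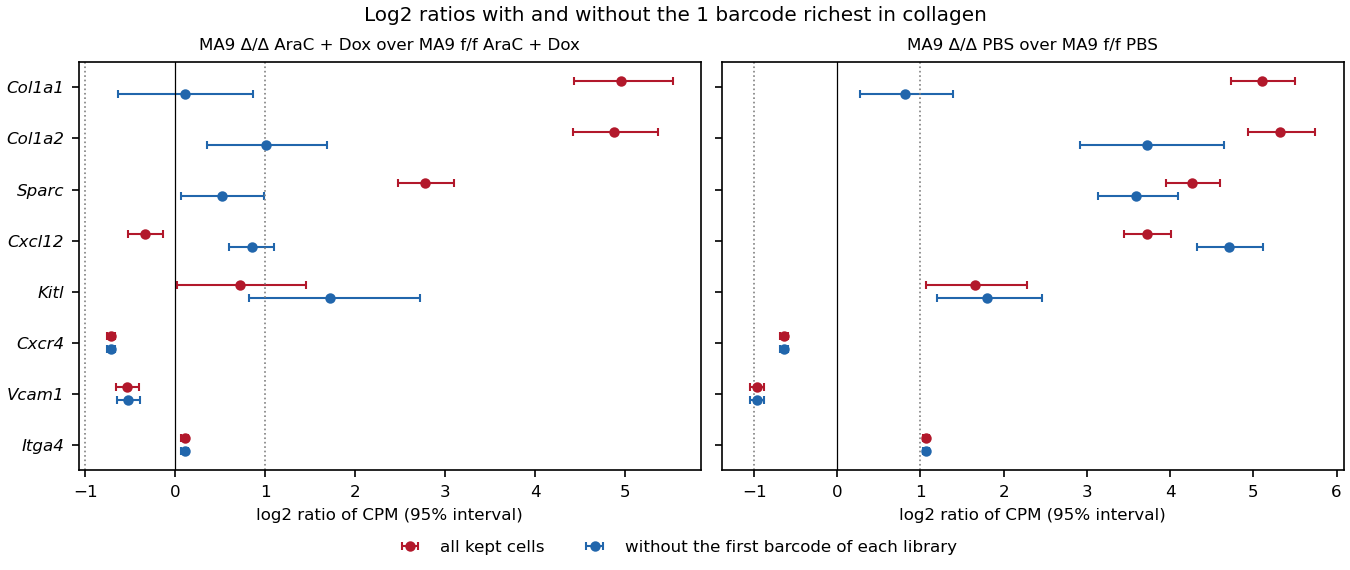
Log2 ratio of CPM, Δ/Δ over f/f as labelled, with AraC + Dox (left) and with PBS (right), over all kept cells and without the barcode richest in collagen of each library; lines are exact 95% intervals and dotted lines mark 2-fold. Without it Col1a1 is at 0.10 with AraC + Dox and 0.82 with PBS, while Cxcr4, Vcam1 and Itga4 hardly move.

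In HM AraC + Dox the Col1a1 UMIs were spread over many cells and the Col1a2 UMIs were not. Col1a1 stood at 5.52 CPM (4.90 to 6.19) in HM AraC + Dox and 0.397 CPM (0.146 to 0.864) in HM PBS, from 291 and 6 UMIs. The 291 UMIs lay in 255 cells, with at most 3 UMIs in any of them. Col1a2 had 80 UMIs in HM AraC + Dox, of which 42 lay in 1 barcode, and 0 UMIs in HM PBS. Sparc had 68 UMIs in HM AraC + Dox, of which 48 lay in the same barcode, and 2 UMIs in HM PBS. Libraries labelled MA9 f/f shared this spread of Col1a1. With AraC + Dox 30 Col1a1 UMIs lay in 26 cells and 40 Col1a2 UMIs in 6, and with PBS 59 Col1a1 UMIs lay in 39 cells and 53 Col1a2 UMIs in 5. Neutrophil-like cells held 17 (AraC + Dox) and 32 (PBS) of these Col1a1 UMIs, at most 1 per cell. The libraries labelled Δ/Δ showed such a spread outside their collagen-rich and Cxcl12-rich barcodes. There 34 Col1a1 UMIs lay in 32 cells with AraC + Dox and 46 in 46 cells with PBS. Col1a2 was spread as well in this remainder, with 41 UMIs in 40 cells and 47 in 44.

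The spread Col1a1 of HM AraC + Dox was not even over cell types. It was 10.2 CPM (8.87 to 11.7) in neutrophil-like cells, where 8.33% of cells had a UMI, and 2.5 CPM (1.20 to 4.61) in T cell-like cells, where 1.33% had one. Monocyte-like cells were at 2.99 CPM and granulocyte-monocyte progenitor-like cells at 1.71 CPM. Outside the filter this library held 1 barcode of 5571 UMIs, at 10.8% mitochondrial UMIs, with 1586 Col1a1, 561 Col1a2, 241 Sparc and 347 Bglap UMIs and 0 of Cxcl12. It resembled the collagen-rich barcodes of the libraries labelled Δ/Δ in its genes and missed the mitochondrial limit narrowly. Its Col1a1 to Col1a2 ratio was 2.83, against 7.61 over the kept cells other than the barcode richest in collagen, and its Bglap to Col1a1 ratio was 0.219, against 0.0450 there. Whether free RNA of that barcode reached the other cells was not tested.

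Cxcl12 (ENSMUSG00000061353; chromosome 6, 117168535 to 117181367, plus strand) had 0 UMIs in the barcode richest in collagen of each Δ/Δ-labelled library. The 50 barcodes richest in collagen nevertheless held 50.6% of its UMIs in the Δ/Δ AraC + Dox-labelled library, 86.9% in the f/f AraC + Dox-labelled one, 62.5% in the Δ/Δ PBS-labelled one and 87.4% in the f/f PBS-labelled one. It stood at 4.2 CPM (3.81 to 4.61) in the Δ/Δ AraC + Dox-labelled library and 5.30 CPM (4.81 to 5.82) in the f/f AraC + Dox-labelled one. The PBS levels were 22.6 CPM (21.6 to 23.6) in the Δ/Δ-labelled library and 1.71 CPM (1.41 to 2.06) in the f/f-labelled one. Its log2 ratio was 3.72 (3.45 to 4.01) with PBS, and 4.71 (4.33 to 5.12) without the first barcodes, since the first barcode labelled f/f PBS carried Cxcl12 and the Δ/Δ PBS-labelled one did not. With AraC + Dox it was -0.34 (-0.53 to -0.14) over all kept cells and 0.85 (0.60 to 1.10) without the first barcodes, so its direction rested on the 1 barcode labelled f/f AraC + Dox that held 243 of 434 Cxcl12 UMIs.

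Cxcl12-rich barcodes, with 5 or more Cxcl12 UMIs, numbered 19 in the Δ/Δ AraC + Dox-labelled library, 6 in the f/f AraC + Dox-labelled one, 43 in the Δ/Δ PBS-labelled one and 2 in the f/f PBS-labelled one. HM AraC + Dox had 2 and HM PBS 0. These are kept barcodes: outside the cell filter lay another 17, 2, 22 and 0 in the MA9 libraries, in the same order, and 0 in either HM library. Of the 72 kept barcodes, 63 had a UMI of Sparc, 42 of Kitl, 39 of Vcam1, 36 of Col1a2 and 21 of Col1a1. They held 3677 UMIs of the mesenchymal stromal list and 262 UMIs of the osteoblast list. Among them 35 had a UMI of Adipoq, 29 of Lepr (the leptin receptor), 22 of the smooth muscle and pericyte gene Acta2 and 14 of Ibsp. A UMI of the platelet gene Pf4 was in 7 and one of the endothelial cadherin Cdh5 in 3. Their UMIs numbered 184 for Adipoq, 81 for Lepr, 99 for Acta2, 122 for Ibsp, 103 for Pf4 and 18 for Cdh5. Another 7 barcodes had 5 or more collagen UMIs and 0 of Cxcl12. They include the first barcodes of both Δ/Δ-labelled libraries, whose 131 and 1041 osteoblast UMIs make up most of the 1223 in these 7, while the other 5 held 1 to 29 osteoblast UMIs and 0 to 13 mesenchymal stromal UMIs each. Among the Cxcl12-rich barcodes, 21 also had over 50 UMIs of neutrophil or granulocyte-monocyte progenitor markers, and 1 was called a doublet; whether they hold more than 1 cell was not tested.

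**Figure D4:**
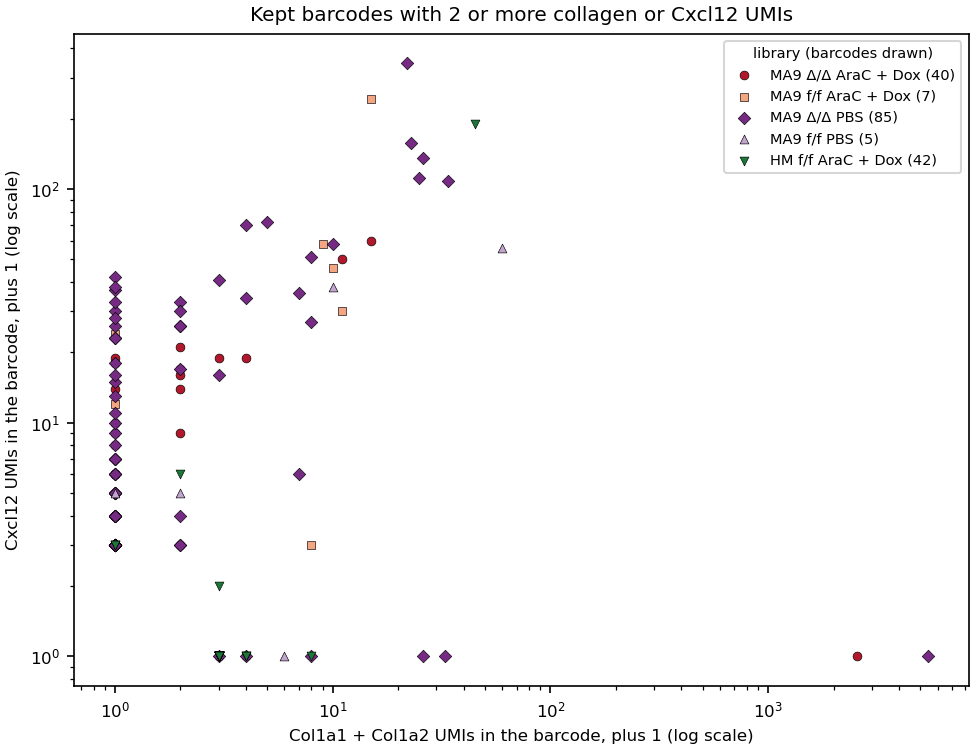
Cxcl12 UMIs against Col1a1 + Col1a2 UMIs, each plus 1 on log axes, for kept barcodes with 2 or more of either, by library. The barcodes with 2546 and 5426 collagen UMIs have 0 Cxcl12 UMIs, and no barcode with 5 or more Cxcl12 UMIs has more than 59 collagen UMIs.

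Clustered without the 8 genes, most of these cells fell into 1 MA9 cluster of 177 cells. It held 73 cells of the Δ/Δ AraC + Dox-labelled library, 20 of the f/f AraC + Dox-labelled one, 76 of the Δ/Δ PBS-labelled one and 8 of the f/f PBS-labelled one. It passed 6 of 6 megakaryocyte markers, the best match of any list, while its leading genes were Col1a2, Col1a1, the platelet gene Pf4, Sparc and Cxcl12. It was left unnamed because one of the 8 genes led it, against the megakaryocyte name. Of its cells labelled Δ/Δ AraC + Dox, 4 had a Col1a1 UMI and 19 a Cxcl12 UMI, and of those labelled Δ/Δ PBS, 17 and 42. The cluster carried 61.4%, 94.5%, 82.6% and 86.5% of Cxcl12 UMIs in these 4 libraries, in that order, and 97.4% and 98.4% of Col1a1 UMIs in both Δ/Δ-labelled libraries (AraC + Dox, then PBS). Outside the collagen-rich and Cxcl12-rich barcodes, Cxcl12 stood at 1.23 CPM in the Δ/Δ AraC + Dox-labelled library and 0.293 CPM in the f/f AraC + Dox-labelled one. The same remainder was 2.90 CPM in the Δ/Δ PBS-labelled library and 0.293 CPM in the f/f PBS-labelled one, in 208 and 13 cells with at most 4 UMIs each.

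Kitl (ENSMUSG00000019966; chromosome 10, 100015630 to 100100416, plus strand) was scarce in all 6 libraries. It had 54 UMIs (0.521 CPM) in the Δ/Δ AraC + Dox-labelled library, 26 (0.317 CPM) in the f/f AraC + Dox-labelled one, 131 (1.45 CPM) in the Δ/Δ PBS-labelled one and 30 (0.462 CPM) in the f/f PBS-labelled one. HM AraC + Dox had 18 UMIs, 12 of them in the barcode with most collagen. HM PBS had 0 UMIs, for which the exact Poisson interval reaches 0.244 CPM. Its log2 ratio was 0.72 (0.02 to 1.45) with AraC + Dox, below 1 CPM in both libraries, and 1.65 (1.07 to 2.28) with PBS. Barcodes with 5 or more collagen or Cxcl12 UMIs held 33.3% of Kitl UMIs in the Δ/Δ AraC + Dox-labelled library and 96.2% in the f/f AraC + Dox-labelled one. With PBS they held 66.4% in the Δ/Δ-labelled library and 43.3% in the f/f-labelled one. Part of the Kitl also lay in macrophage-like cells, which expressed the complement genes C1qa, C1qb and C1qc. It was at 33.9 CPM in 126 such cells labelled Δ/Δ AraC + Dox and 60.4 CPM in 129 labelled Δ/Δ PBS. These macrophage-like cells held 44.4% and 25.2% of all Kitl UMIs in those libraries. The 38 macrophage-like cells labelled f/f AraC + Dox held 0 of 26 Kitl UMIs, and the 35 labelled f/f PBS held 10 of 30.

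Vcam1 (ENSMUSG00000027962; chromosome 3, 116109949 to 116129688, minus strand) was highest in the f/f PBS-labelled library. It stood at 9.17 CPM (8.60 to 9.77) in the Δ/Δ AraC + Dox-labelled library, 13.3 CPM (12.5 to 14.1) in the f/f AraC + Dox-labelled one, 22.6 CPM (21.7 to 23.6) in the Δ/Δ PBS-labelled one and 44.2 CPM (42.6 to 45.9) in the f/f PBS-labelled one. HM AraC + Dox and HM PBS were at 8.90 CPM and 8.47 CPM, with overlapping intervals. Its log2 ratio, Δ/Δ over f/f as labelled, was -0.54 (-0.66 to -0.41) with AraC + Dox and -0.97 (-1.05 to -0.88), just short of 2-fold, with PBS. Stroma carried little of it: barcodes rich in collagen or Cxcl12 held 0.383% to 5.83% of its UMIs in the MA9 libraries.

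Different cells carried Vcam1 in the libraries compared. Macrophage-like cells held 68.3% of Vcam1 UMIs in the Δ/Δ AraC + Dox-labelled library, at 916 CPM in 126 cells, and 4.78% in the f/f AraC + Dox-labelled one, at 250 CPM in 38 cells. With PBS they held 70.3% in the Δ/Δ-labelled library, at 2628 CPM in 129 cells, and 14.8% in the f/f-labelled one, at 2206 CPM in 35 cells. In the libraries labelled f/f, neutrophil-like cells held more than macrophage-like cells, with 51.7% of UMIs (AraC + Dox) and 42.8% (PBS). Neutrophil-like cells were at 3.81 CPM in the Δ/Δ AraC + Dox-labelled library and 16.1 CPM in the f/f AraC + Dox-labelled one, and at 19.2 CPM in the Δ/Δ PBS-labelled one and 44.0 CPM in the f/f PBS-labelled one. In granulocyte-monocyte progenitor-like cells the log2 ratio was -3.90 (-4.32 to -3.47) with AraC + Dox and -2.05 (-2.52 to -1.57) with PBS. This class joins clusters 3 and 15, which held 2111 and 505 cells of the Δ/Δ AraC + Dox-labelled library, 48 and 47 of the f/f AraC + Dox-labelled one, 183 and 590 of the Δ/Δ PBS-labelled one and 65 and 71 of the f/f PBS-labelled one. Monocyte-like cells were at or below 1.51 CPM in all 4 MA9 libraries.

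Itga4 (ENSMUSG00000027009; chromosome 2, 79255426 to 79333123, plus strand), the alpha chain of the VCAM1 receptor, was highest in the Δ/Δ PBS-labelled library. It stood at 124 CPM (122 to 126) in the Δ/Δ AraC + Dox-labelled library, 116 CPM (113 to 118) in the f/f AraC + Dox-labelled one, 235 CPM (232 to 238) in the Δ/Δ PBS-labelled one and 112 CPM (109 to 114) in the f/f PBS-labelled one. HM AraC + Dox was at 46.1 CPM (44.3 to 47.9) and HM PBS at 45.6 CPM (42.3 to 49.1), which overlapped. The log2 ratio, Δ/Δ over f/f as labelled, was 0.10 (0.06 to 0.14) with AraC + Dox, while PBS gave 1.07 (1.03 to 1.11). Under median-of-ratios scaling, which moves every log2 ratio of the PBS pair by -0.17, Itga4 fell short of 2-fold higher at 0.90 and Vcam1 passed 2-fold lower, and the AraC + Dox ratio of Itga4 was -0.01. The top 50 barcodes held 0.326% to 1.11% of Itga4 UMIs in the 6 libraries, beside 0.498% to 1.84% of all UMIs.

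Within the 4 classes given next the PBS ratio of Itga4 was nearer to 0 than over the whole library. Stem and progenitor-like cells had the highest level among named classes of at least 50 cells in 3 of the 4 MA9 libraries, at 406 CPM (Δ/Δ AraC + Dox as labelled), 373 CPM (f/f AraC + Dox), 416 CPM (Δ/Δ PBS) and 307 CPM (f/f PBS), beside 309 CPM in T cell-like cells of the last. Their log2 ratio with PBS was 0.44 (0.35 to 0.53), that of neutrophil-like cells 0.47 (0.31 to 0.63), that of granulocyte-monocyte progenitor-like cells 0.09 (-0.16 to 0.35) and that of monocyte-like cells -0.19 (-0.41 to 0.03). Stem and progenitor-like cells were 22.1% of kept cells and held 45.4% of Itga4 UMIs in the Δ/Δ PBS-labelled library, against 5.78% of cells and 16.2% of UMIs in the f/f PBS-labelled one. Clusters 2 and 10 made up this class, with 1040 and 1044 cells labelled Δ/Δ PBS and 410 and 88 labelled f/f PBS. How far the shift in cells accounts for the ratio of the whole library was not tested.

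Cxcr4 (ENSMUSG00000045382; chromosome 1, 128588199 to 128592293, minus strand), the CXCL12 receptor, was lower in both libraries labelled Δ/Δ, by less than 2-fold. It stood at 65.9 CPM (64.4 to 67.5) in the Δ/Δ AraC + Dox-labelled library and 108 CPM (106 to 110) in the f/f AraC + Dox-labelled one, a log2 ratio of -0.71 (-0.76 to -0.67). The PBS levels were 77.8 CPM (76.0 to 79.7) in the Δ/Δ-labelled library and 122 CPM (119 to 124) in the f/f-labelled one, a log2 ratio of -0.64 (-0.69 to -0.60). HM AraC + Dox was at 77.9 CPM (75.5 to 80.3) and HM PBS at 109 CPM (104 to 115). No few cells carried it: the top 50 barcodes held 0.313% to 1.22% of its UMIs. Thinned to 2000 UMIs per cell, 13.9% of cells labelled Δ/Δ AraC + Dox, 19.1% labelled f/f AraC + Dox, 14.7% labelled Δ/Δ PBS and 22.3% labelled f/f PBS had a Cxcr4 UMI, and 44.2%, 51.4%, 42.3% and 52.9% did before thinning. Thinning left out 1234, 911, 1627 and 664 shallower cells of these libraries.

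Cxcr4 was lower within several named classes as well. Unnamed clusters, left out here, held 4841 of 9446 cells labelled Δ/Δ AraC + Dox and 3413 of 9750 labelled f/f AraC + Dox. In the PBS libraries they held 4205 of 9431 cells labelled Δ/Δ and 2660 of 8614 labelled f/f. Neutrophil-like cells had a log2 ratio of -1.16 (-1.36 to -0.96) with AraC + Dox, granulocyte-monocyte progenitor-like cells one of -1.19 (-1.50 to -0.86), monocyte-like cells one of -1.63 (-2.02 to -1.27) and stem and progenitor-like cells one of -0.72 (-1.06 to -0.37). With PBS it was -1.15 (-1.31 to -1.0), -0.85 (-1.14 to -0.55), -0.74 (-1.02 to -0.47) and -0.55 (-0.69 to -0.40) in the same 4 classes. In T cell-like cells the intervals included 0, at -0.61 (-1.38 to 0.20) with AraC + Dox, while PBS gave -0.13 (-0.80 to 0.61), from 21 UMIs in each library labelled f/f. Neutrophil-like cells spanned 5 clusters, led by cluster 14 among cells labelled Δ/Δ AraC + Dox (200 of 608), by cluster 4 among those labelled f/f AraC + Dox (1222 of 4115) and by cluster 19 in both PBS libraries (741 of 1168 cells labelled Δ/Δ and 1354 of 4120 labelled f/f).

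**Figure D5:**
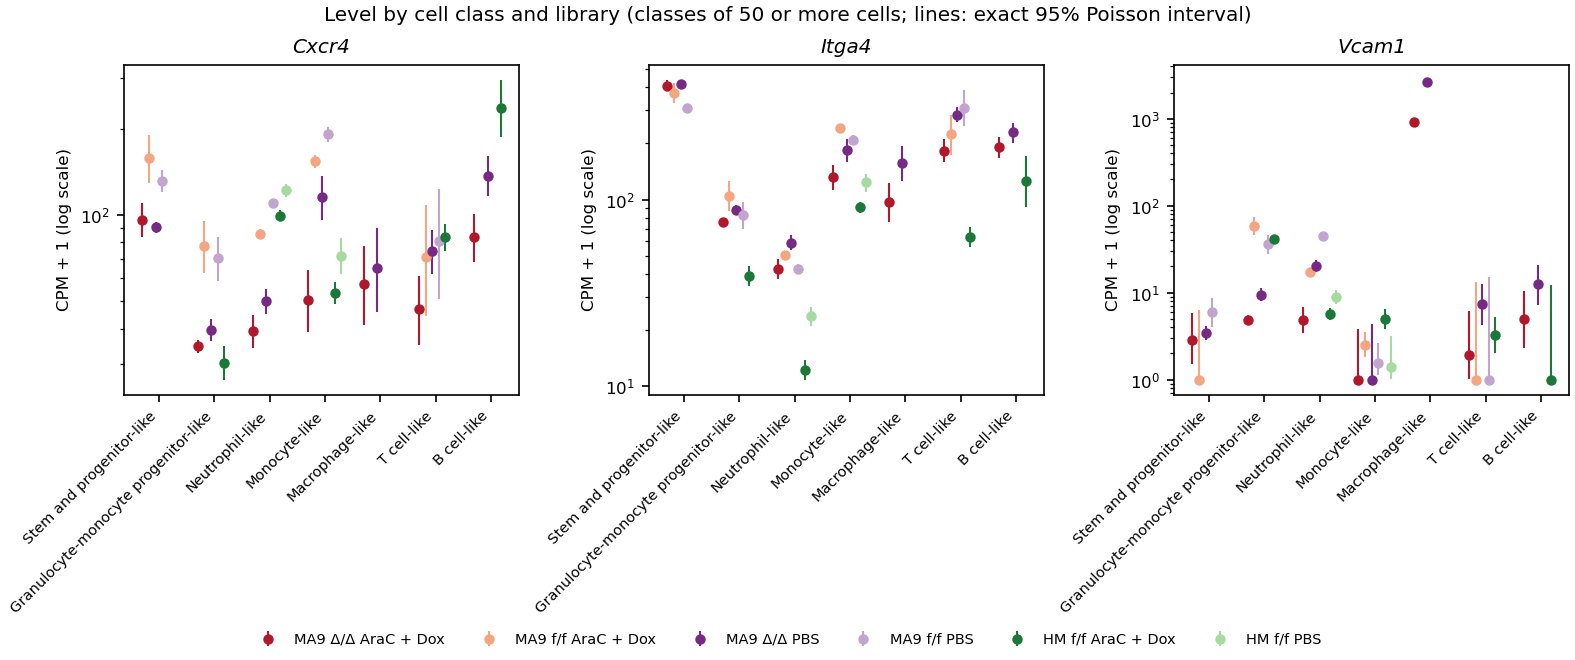
Level of Cxcr4, Itga4 and Vcam1 (CPM plus 1, log axis) by cell class, coloured by library, with exact 95% Poisson intervals; classes of fewer than 50 cells are not drawn. Vcam1 stands at 916 CPM (AraC + Dox) and 2628 CPM (PBS) in macrophage-like cells labelled Δ/Δ, and Itga4 at 307 to 416 CPM in stem and progenitor-like cells of the 4 MA9 libraries.

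AraC + Dox was set against PBS in 3 pairs, which reuse the libraries above. Among libraries labelled Δ/Δ, 0 genes were at least 2-fold higher and 6 of 8 lower with AraC + Dox, where 2.07% of 11580 genes were called higher and 3.92% lower. The lower genes were Cxcl12 (log2 ratio -2.43), Sparc (-1.58), Kitl (-1.48), Col1a1 (-1.46), Vcam1 (-1.30) and Col1a2 (-1.20), and Itga4 fell just short at -0.92 (-0.95 to -0.89). Of these 6 calls, 3 (Sparc, Cxcl12 and Vcam1) were made without the top 50 barcodes, where the other 3 genes were below 1 CPM, and 2 (Cxcl12 and Vcam1) without the collagen-rich and Cxcl12-rich barcodes. Outside those collagen-rich and Cxcl12-rich barcodes, Col1a1 was at 0.329 CPM with AraC + Dox and 0.511 CPM with PBS, Col1a2 at 0.396 and 0.522 CPM, Kitl at 0.348 and 0.489 CPM and Sparc at 0.716 and 1.26 CPM, each under 2-fold apart. Among libraries labelled f/f, 5 genes reached 1 CPM: Cxcl12 was higher at 1.63 (1.33 to 1.95) and Vcam1 lower at -1.73 (-1.84 to -1.63), where 1.22% of 11222 genes were called higher and 3% lower. The Cxcl12 call ended without the top 50 barcodes, where it was below 1 CPM in both libraries at a log2 ratio of 1.69, and without the collagen-rich and Cxcl12-rich barcodes, where it stood at 0.293 CPM in both libraries labelled f/f. In neutrophil-like cells alone Vcam1 was at -1.45 (-1.59 to -1.30) in this pair.

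In HM, 4 of the 7 genes at 1 CPM or more were at least 2-fold higher with AraC + Dox and 0 were lower, where 16.5% of 11515 genes were called higher and 11% lower. Col1a1 was 13.9-fold higher. Set against a floor of 3 counts for their 0 UMIs in HM PBS, Col1a2 was 7.64-fold and Cxcl12 22.6-fold higher. Their exact intervals had no upper end and started at log2 ratios of 2.60 (Col1a2) and 4.19 (Cxcl12). Sparc had a log2 ratio of 3.28 (1.38 to 6.36) against 2 UMIs in HM PBS. Of these 4 genes, Col1a1 was still called without the first barcode of each library. Col1a2, Sparc and Cxcl12 were then at 0.721, 0.380 and 0.911 CPM in HM AraC + Dox, below the minimum of 1 CPM. Their log2 ratios were still past 2-fold, at 1.86 (Col1a2) and 2.20 (Cxcl12) against the floor and 1.52 (-0.52 to 4.66) for Sparc. HM AraC + Dox carried 188 of its 236 Cxcl12 UMIs in its first barcode, which had 17113 UMIs, 66 of them Adipoq (adiponectin). Cxcr4 was at -0.49 (-0.57 to -0.40), Vcam1 at 0.07 (-0.21 to 0.36) and Itga4 at 0.02 (-0.11 to 0.14), of which Vcam1 and Itga4 were at -0.08 and -0.14 under median-of-ratios scaling.

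HM PBS was also set against the MA9 f/f PBS-labelled library, with 0 genes higher and 4 of the 5 at 1 CPM or more lower, where 10.1% of 11448 genes were called higher and 36.5% lower. Vcam1 had a log2 ratio of -2.38 (-2.65 to -2.13) and Itga4 of -1.30 (-1.41 to -1.18), whereas Cxcr4 was at -0.15 (-0.23 to -0.08). Median-of-ratios scaling moves this pair by 0.62, which put Itga4 at -0.68, no longer 2-fold lower, and turned Cxcr4 to 0.46. Sparc and Cxcl12 had 2 and 0 UMIs in HM PBS, against 82 and 111 UMIs in the MA9 f/f PBS-labelled library; without its first barcode they were at 0.616 and 0.862 CPM there, under the minimum of 1 CPM, and were not called. The matrices of the 2 models list different numbers of features, so processing and model cannot be told apart.

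Over the 6 pairs the median log2 ratio of the genes at 1 CPM or more was 2.69 for Δ/Δ PBS over f/f PBS as labelled (0.17 over all genes compared) and 0.10 for the AraC + Dox pair (0.05). It was -1.38 for AraC + Dox over PBS among libraries labelled Δ/Δ (-0.08) and -0.09 among those labelled f/f (0.01). In HM it was 2.93 (0.13), with 2 genes set against the floor of 3 counts. For HM PBS over MA9 f/f PBS it was -2.38 (-0.70), with 1 gene set against that floor.

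Other genes of the niche were called in both directions; the shares over all genes are 8.57% higher and 4.72% lower in the PBS pair and 10% and 5.84% in the AraC + Dox pair. In the PBS pair, of 20 matrix genes 11 reached 1 CPM, 5 higher and 4 lower in the Δ/Δ-labelled library; fibronectin (Fn1) was at 9.61 CPM in it and 32.7 CPM in the f/f-labelled one, a log2 ratio of -1.77. Of 16 niche factors 9 reached 1 CPM, 5 higher and 1 lower: Angpt1, the ligand of TEK, was at 46.4 CPM and 12.5 CPM (1.89), and Vegfa, a vessel growth factor, at 19.1 CPM and 42.8 CPM (-1.16). Of 29 homing receptors and their partners 25 reached 1 CPM, 4 higher and 4 lower, with the gelatinase Mmp9 at -1.80 and Itgb7, the other known partner chain of Itga4 beside Itgb1, at 1.08. In the AraC + Dox pair 2 matrix genes were higher and 2 lower of 8, 3 niche factors higher and 0 lower of 8, and 2 homing genes higher and 3 lower of 25.

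Angpt1 also separated the treatments, at 4.16 CPM in the Δ/Δ AraC + Dox-labelled library and 46.4 CPM in the Δ/Δ PBS-labelled one (log2 ratio -3.48), and at 1.73 CPM in the f/f AraC + Dox-labelled one and 12.5 CPM in the f/f PBS-labelled one (-2.85). In HM, Angpt1 was at 5.33 CPM with AraC + Dox and 0.596 CPM with PBS (3.16, 2.22 to 4.31). Between HM libraries 1 matrix gene was higher and 1 lower of 3, 3 niche factors higher and 1 lower of 7, and 5 homing genes higher and 3 lower of 25, where 16.5% of all genes were higher and 11% lower, so the homing counts lie near those shares. Among the higher homing genes was the egress receptor S1pr1 at 17.0 CPM with AraC + Dox and 1.13 CPM with PBS.

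Other genes concentrated in the 50 collagen-ranked barcodes differed by library. Dcn (decorin), Bglap, Bglap2, Col11a1 and Ibsp had 87.1% to 96.0% of their UMIs there in the Δ/Δ AraC + Dox-labelled library. In the f/f AraC + Dox-labelled one they included the collagenase Mmp13 (93.6%), Gas6 (89.7%), a ligand of the TAM receptors, and the matrix genes Bgn (88.2%) and Mgp (87.9%). In the Δ/Δ PBS-labelled one, 346 of 349 Bglap2 UMIs and 578 of 590 Bglap UMIs were there. In HM AraC + Dox the adipocyte-related genes Adipoq (89.2%) and Fabp4 (81.1%) stood out, with 66 of 74 and 256 of 318 UMIs in 1 barcode. Across the 6 libraries the genes most alike in log2(CPM + 1), of 7119 compared, were Actr3 for Cxcr4 (r = 0.988), Tacc1 for Itga4 (r = 0.998), Son for Vcam1 (r = 0.967) and Vps13a for Kitl (r = 0.994); with 6 points that share libraries and depth, these are descriptions.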

How the data were processed

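Single-cell RNA of mouse bone marrow was counted as unique molecular identifiers (UMIs) in 6 libraries made with a droplet 3′ kit, per the labels' protocols. The values are raw UMI counts per gene and barcode as deposited by the authors. Cell Ranger 3.0.2 and mm10 are named in the submitters' processing notes, and the headers of the MA9 matrices name that version. The MA9 matrices list 31053 features and the HM matrices 32285. File names and labels differ for some MA9 libraries, and the labels were used.

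A barcode needed 500 genes or more and no more than 10% mitochondrial UMIs, which left 2755 to 9750 cells and 15111411 to 103581646 UMIs per library. Doublets called by Scrublet's method (29 to 546 per library) were kept, and their removal was tried. Where the automatic threshold called under 0.5% of cells, the mean threshold of the other libraries replaced it. This was so in both Δ/Δ-labelled and both HM libraries. Counts were summed per library or class and given as CPM with exact Poisson 95% intervals. Ratios had a floor of 3 counts for 0, and a gene needed 1 CPM in at least 1 library of a pair to be called past 2-fold. With 1 library per group no test was possible. The ratio code was tested on simulated data. Cells were clustered without the 8 genes (scanpy 1.11.5, Leiden resolution 1, MA9 and HM apart), and clusters were named from at least 3 markers. Cells of unnamed clusters entered no named class. The 8 genes, gene lists and markers were chosen with earlier results of these data known. Beyond the 8, up to 4 genes per list and pair with the largest ratio at 5 CPM or more, the 10 most concentrated genes per library and the genes most alike over libraries could be named. Other genes named (C1qa, C1qb, C1qc, Lepr, Cdh5, Acta2) are markers. Alternatives covered the cell filter, doublets, scaling, CPM minimum, fold rule, number of top barcodes, leaving barcodes out, resolution and thinning.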

Additional observations from a re-analysis of the deposited data

Results flagged for a closer look

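Some log2 ratios differed in direction between pairs, and none of these differences was tested. Cxcl12, Δ/Δ over f/f as labelled, was at -0.34 with AraC + Dox and 3.72 with PBS, 4.06 apart; the same 4 libraries taken as AraC + Dox over PBS gave -2.43 for those labelled Δ/Δ and 1.63 for those labelled f/f. Itga4, AraC + Dox over PBS, was at -0.92 in libraries labelled Δ/Δ and 0.05 in those labelled f/f, 0.97 apart. AraC + Dox over PBS in libraries labelled MA9 Δ/Δ against HM differed by -5.25 for Col1a1 (-1.46 and 3.8) and -4.86 for Sparc (-1.58 and 3.28). For Col1a2 it differed by -4.13 (-1.20 and 2.93) and for Cxcl12 by -6.92 (-2.43 and 4.50), these HM values being set against the floor of 3 counts.

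In the MA9 libraries and HM AraC + Dox, barcodes outside the cell filter carried more of several of the 8 genes per UMI than kept cells. In the Δ/Δ AraC + Dox-labelled library, 1302 such barcodes had 35.5 CPM of Col1a2, 65.7 CPM of Sparc, 164 CPM of Cxcl12, 9.46 CPM of Kitl, 134 CPM of Cxcr4 and 183 CPM of Vcam1. In that labelled f/f AraC + Dox, 531 barcodes had 20.2 CPM of Col1a2, 20.2 CPM of Sparc, 38.8 CPM of Cxcl12 and 97.8 CPM of Vcam1. In that labelled Δ/Δ PBS, 949 barcodes had 82.5 CPM of Col1a1, 103 CPM of Col1a2, 190.4 CPM of Sparc, 579 CPM of Cxcl12, 53.9 CPM of Kitl and 538 CPM of Vcam1. In that labelled f/f PBS, 476 barcodes had 236 CPM of Vcam1. In HM AraC + Dox, 688 barcodes had 1220.5 CPM of Col1a1, 429 CPM of Col1a2 and 185 CPM of Sparc, of which 1 barcode gave 2147 of 2161 collagen UMIs. Cxcl12 was lower outside the filter there, at 1.53 CPM against 4.48 CPM. HM PBS went the other way for Cxcr4 and Vcam1. Its 9719 barcodes outside the filter had 35.3 and 4.28 CPM of these, against 109 and 8.47 CPM in kept cells. Itga4 was higher outside it, at 69.3 CPM against 45.6 CPM.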

How the results depend on the processing

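No paired analysis was possible because each group is 1 library with no replicate number, and no replicate could be left out. Of 132 counts of genes past 2-fold under alternatives, 102 stayed within 1.5 times. With a 5% mitochondrial limit, 1 gene was lower in each Δ/Δ over f/f pair as labelled (Vcam1), 2 were higher for AraC + Dox over PBS in libraries labelled f/f, and 2 were lower for HM PBS over MA9 f/f PBS. Median-of-ratios scaling, which shifted the 6 pairs by -0.17 to 0.62 on the log2 scale, made 1 gene (Vcam1) lower in the PBS pair. A minimum of 5 CPM left 1 gene higher in HM and 2 lower for HM PBS over MA9 f/f PBS, and 20 CPM left 0 higher in HM, in the AraC + Dox pair and for AraC + Dox over PBS in libraries labelled f/f, and 2 lower for HM PBS over MA9 f/f PBS. At 1.5-fold, 2 genes were lower in the PBS pair and 1 in the AraC + Dox pair. Without the top 50 barcodes, 3 genes were higher and 1 lower in the PBS pair, 1 was higher in the AraC + Dox pair and in HM, 0 were higher for AraC + Dox over PBS in libraries labelled f/f, 3 were lower in those labelled Δ/Δ, and 2 were lower for HM PBS over MA9 f/f PBS.

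Chosen after seeing the data, leaving out the first barcode gave 0 higher in the AraC + Dox pair, 1 higher in HM and 2 lower for HM PBS over MA9 f/f PBS. Leaving out all barcodes with 5 or more collagen or Cxcl12 UMIs gave 3 higher and 1 lower in the PBS pair, 1 higher in the AraC + Dox pair and in HM, 0 higher for AraC + Dox over PBS in libraries labelled f/f, 2 lower in those labelled Δ/Δ and 2 lower for HM PBS over MA9 f/f PBS, and turned Col1a1 in the PBS pair to -0.16. Removing called doublets moved no count. At Leiden resolutions 0.5 and 1.5, 161 of 204 class levels of Cxcr4, Vcam1 and Itga4 stayed within their counting interval. The other 43 moved, 30 of them at 0.5 and 13 at 1.5. With a 20% mitochondrial limit, the barcode outside the filter in HM AraC + Dox entered and Col1a1 stood at 6.68 on the log2 scale, AraC + Dox over PBS. Of 378 log2 ratios, 115 moved beyond their counting interval with no reversal of a call, and the Col1a1 ratio above was the 1 reversed call. The sign changed in 23, of which 22 were ratios not called past 2-fold, such as Cxcl12 in the AraC + Dox pair (-0.34, and 0.85 without the first barcodes). Depth limits HM PBS most, where 0 UMIs allow up to 0.244 CPM by the exact Poisson interval.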
